A study of Mus musculus with 48 samples.

Results

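The genes described here are 10 chaperones and folding enzymes of the endoplasmic reticulum (ER) in the mouse kidney: Hspa5, Creld2, Manf, Hyou1, Sdf2l1, Pdia4, Pdia6, Dnajb11, Hsp90b1 and Calr. They were selected on measured values of these libraries, namely the 24-h and 12-h terms of their rhythm, its timing and their translation efficiency (TE). All 10 were found among the 12423 genes with a value in both RNA-seq and RPF-seq and among the 11863 genes tested. Those measures are therefore given for them as a description: where a count of these genes past a threshold is printed, the choice had used the same values, and nothing is read from the count or from the background beside it. The kidneys came from 48 male C57BL/6JRj mice aged 11 to 12 weeks, held in light and dark phases of 12 h each for 2 weeks, with lights on at Zeitgeber time ZT00 and off at ZT12, and fed ad libitum. No genotype or treatment other than the time of collection was named for any group. Tissue was taken every 2 h at 12 timepoints from ZT00 to ZT22, and at each timepoint 2 replicate pools were made, each from the lysates of 2 mice. Each of the 24 pools gave 1 RNA-seq library, which measures transcript abundance, and 1 RPF-seq library, which measures the mRNA fragments shielded by translating ribosomes. The authors state that organs were collected over 2 daily cycles, and the labels do not say whether the replicate number marks the cycle. The labels do not say more about how the replicate pools of a timepoint differ, so the spread between them may hold both biological and technical parts.

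Proteins that are secreted or sit in membranes are threaded into the ER as they are made, and there they fold, receive glycans and form disulphide bonds. Hspa5 (BiP), the Hsp70 of this compartment, binds unfolded stretches, and it works with Dnajb11, a J-domain co-chaperone, with Sdf2l1, a partner of Dnajb11, and with Hyou1, its nucleotide exchange factor. Manf is a BiP-binding protein that can also be secreted. Hsp90b1 (GRP94) is the Hsp90 of the ER, Calr (calreticulin) a calcium-binding lectin chaperone of glycoproteins, and Pdia4 and Pdia6 are protein disulphide isomerases, while Creld2 is a small ER-resident protein related to them in function. When unfolded protein builds up, the sensors Ern1 (IRE1), Eif2ak3 (PERK) and Atf6 start the unfolded protein response (UPR), whose factors Xbp1 and Atf6 act with the CCAAT-binding complex NF-Y at the ER stress element (ERSE) in the promoters of many chaperone genes. The kidney, whose tubule cells carry large amounts of membrane transporters and receptors, makes much of its protein through this route.

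The promoters are shown first because the ERSE is the sequence by which this family is usually recognised. RefSeq promoters on GRCm38.p6, spanning 250 bases before to 50 bases after an annotated start, were found for 8 of the 10 genes; Manf and Hyou1 had no entry. The search was for the letters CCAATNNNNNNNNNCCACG on both strands. They occurred in the promoters of 5 of these 8 genes, Hspa5, Creld2, Pdia6, Calr and Hsp90b1, and in 39 of all 32851 promoters (0.119%). Each site is written 5′ to 3′ on the strand that reads CCAAT first, with its fixed letters in capitals and 4 further bases in lower case at either side:
Hspa5, chr2:34772025-34772043: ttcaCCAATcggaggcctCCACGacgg
Creld2, chr15:88819520-88819538: tggaCCAATtgaggctcgCCACGagaa
Pdia6, chr12:17266491-17266509: gagaCCAATgaaaggcggCCACGgcgt
Calr, chr8:84847075-84847093: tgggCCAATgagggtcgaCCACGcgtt
Hsp90b1, chr10:86705533-86705551: ctcaCCAATcgtgcctcaCCACGcact
Hsp90b1, chr10:86705638-86705656: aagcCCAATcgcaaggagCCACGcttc
All 6 sites lie upstream of the RefSeq start, at positions -212 to -194 for the farther Hsp90b1 site and -65 to -47 for Hspa5, counted from the RefSeq start. For Hspa5 that start lies inside the GENCODE gene given below, so that its site does too. Hsp90b1 held the only promoter of the 32851 with 2 such sites. Dnajb11 held the related ERSE-II letters ATTGGNCCACG, present in 12 promoters (0.0365%), just after its start at chr16:22857852-22857862:
Dnajb11: ggcgATTGGcCCACGcctg
Hspa5 also held TGACGTG, a core of the UPR element found in 661 promoters (2.01%), and Calr held CACGTG, the E-box letters of clock factors found in 2349 (7.15%). Neither ERSE form was found in the promoter windows of Sdf2l1 and Pdia4. A match gives only the letters in the window and says nothing on binding.

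The genes lie apart on the genome, and the values are of their coding exons. On GRCm38 (GENCODE vM21) the BiP group is Hspa5 (chromosome 2, 34771970 to 34777547, plus strand), Dnajb11 (chromosome 16, 22857845 to 22879634, plus strand), Sdf2l1 (chromosome 16, 17130138 to 17132383, minus strand), Hyou1 (chromosome 9, 44379490 to 44392369, plus strand) and Manf (chromosome 9, 106838312 to 106891979, minus strand). The enzymes of disulphide formation and their relative are Pdia4 (chromosome 6, 47796141 to 47813430, minus strand), Pdia6 (chromosome 12, 17266545 to 17284770, plus strand) and Creld2 (chromosome 15, 88819646 to 88826683, plus strand). The remaining chaperones are Hsp90b1 (chromosome 10, 86690209 to 86705509, minus strand) and Calr (chromosome 8, 84841850 to 84846934, minus strand).

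All 10 genes were measured well above the detection limit. RPKM (reads per kilobase of coding sequence, scaled to sequencing depth) can be compared between genes, and by their mean over the 24 RNA libraries Calr was highest at 646 RPKM ± 141 (SD, n = 24, the daily change included), followed by Hspa5 at 456 ± 175 and Hsp90b1 at 413 ± 116. Pdia6, Pdia4, Manf, Hyou1, Dnajb11 and Creld2 lay between 169 and 57.7 RPKM, and Sdf2l1 was lowest at 23.9 ± 9.60. The spreads of Hspa5 and Hsp90b1 overlap, as do those of Pdia4, Manf and Hyou1. In RPF-seq Calr again led with 1383 RPKM ± 276.5, before Hspa5 at 829 ± 291 and Hsp90b1 at 648 ± 144. The median of the 10 genes was 118 RPKM in RNA-seq and 183 RPKM in RPF-seq, against 16.6 and 13.7 over all genes tested. The deposited values fall on whole reads once the coding length is known, and on that scale the least covered value was 93 reads, for Sdf2l1 in an RNA library, while the lowest library of Hspa5 held 6439 reads in RNA-seq and 16614 in RPF-seq. Depth relative to the median library ran from 0.598 to 2.04 in RNA-seq and from 0.701 to 1.58 in RPF-seq. Of the libraries, the RPF library of replicate 2 at ZT04 stood apart with 162 genes at 0, where the median RPF library had 1.5. The kidney markers Lrp2, Slc34a1, Kap, Umod, Slc12a1, Slc12a3 and Aqp2 were present in every library. The clock genes peaked in RNA-seq at ZT22.5 (Arntl), ZT7.52 (Nr1d1), ZT10.5 (Dbp) and ZT14.7 (Per2) with 24-h folds from 7.73 to 42.1, in the order known for these genes.

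All 10 genes were high in the dark phase and low around the end of the light phase, and most had a smaller shoulder or second maximum in the morning. Hspa5 shows the course. Its RNA-seq values in replicates 1 and 2 were 399 and 412 RPKM at ZT00, 550.1 and 375 at ZT02, 491 and 314 at ZT04, 323 and 348 at ZT06, 274 and 232 at ZT08, and 252 and 262 at ZT10. They went on with 249 and 335 at ZT12, 453 and 546.5 at ZT14, 661 and 770.5 at ZT16, 791 and 740.4 at ZT18, 670.3 and 616 at ZT20, and 475 and 403 at ZT22. Every value from ZT16 to ZT20 lay above every other value, and at ZT02 and ZT04 replicate 1 lay above replicate 2. In RPF-seq the 6 libraries from ZT16 to ZT20 ran from 983 to 1363 RPKM (median 1229) and those from ZT08 to ZT12 from 431 to 595 (median 462).

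**Figure D1:**
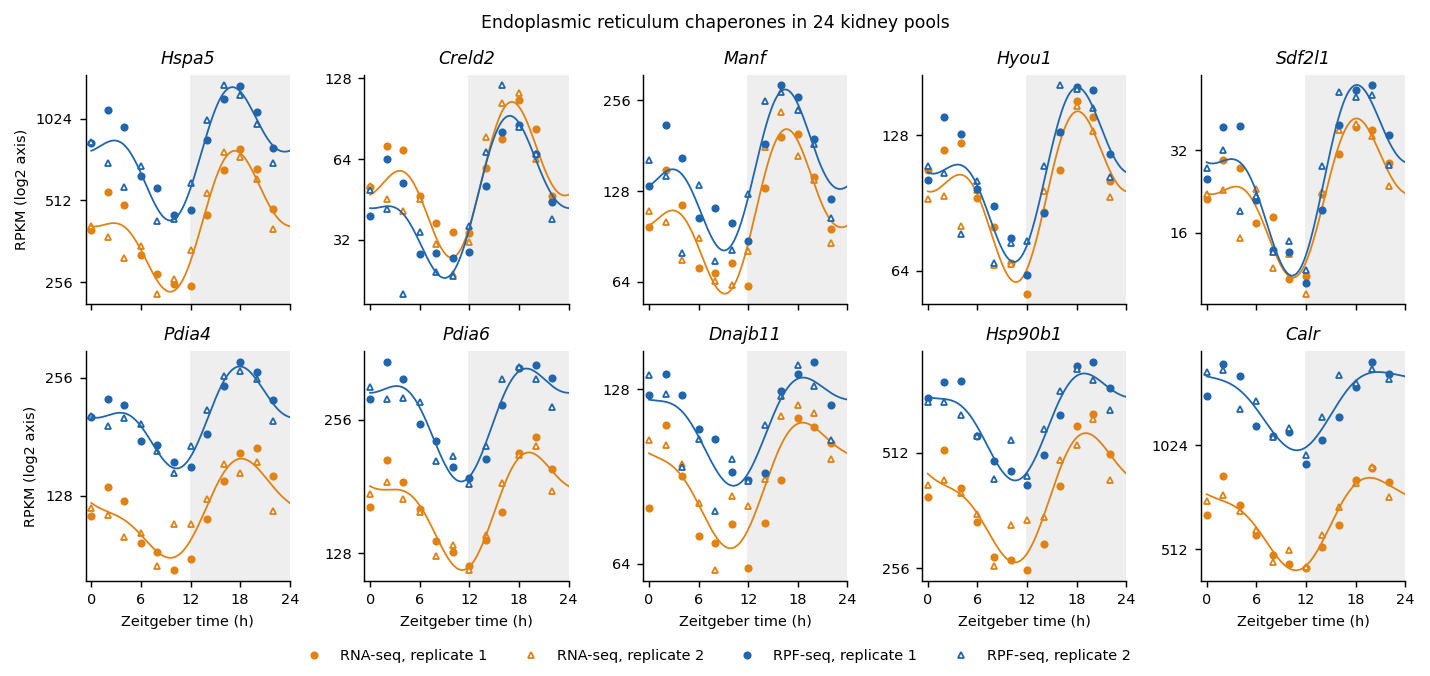
RPKM of the 10 chaperone genes (log2 vertical axis) against Zeitgeber time in hours in the 24 kidney pools, RNA-seq in orange and RPF-seq in blue, replicate 1 as filled circles and replicate 2 as open triangles, with the fitted sum of a 24-h and a 12-h cosine as a line and the dark phase shaded. All 10 genes are lowest around ZT08 to ZT12 and highest around ZT16 to ZT20, and Hspa5, Creld2, Manf, Hyou1 and Sdf2l1 have a second, lower maximum near ZT02 to ZT04.

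The partners of BiP among the 10 genes followed the same course at lower levels. In RNA-seq Hyou1 ran from 107 to 153 RPKM (median 136) in the 6 libraries from ZT16 to ZT20 and from 56.9 to 80.0 (median 66.1) in the 6 from ZT08 to ZT12. Sdf2l1 was at 31.0 to 40.1 RPKM (median 38.1) at night and at 9.58 to 18.3 (median 11.5) in the late light phase, and in RPF-seq at 39.6 to 55.5 and 10.5 to 15.0, the widest separation among the 10 genes. Dnajb11, the J protein, differed least, with 89.4 to 120.5 RPKM (median 115) against 62.4 to 83.7 (median 72.2) in RNA-seq. For Manf the RNA values were 139 to 235 RPKM (median 180) at night and 61.7 to 81.2 (median 66.3) in the late light phase. The night and late light values of these 4 genes did not overlap.

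The same held for the disulphide enzymes and the remaining chaperones. Creld2 was at 63.9 to 113 RPKM (median 92.9) from ZT16 to ZT20 and at 23.9 to 37.0 (median 32.6) from ZT08 to ZT12 in RNA-seq. Pdia4 and Pdia6 changed less, Pdia4 from a median of 90.0 to one of 155 and Pdia6 from 127.5 to 214.5 RPKM. Hsp90b1 was at 419 to 645 RPKM (median 569) at night and at 253 to 342 (median 271) in the late light phase, and Calr at 601.5 to 884 (median 805) and 452 to 509.5 (median 467). Without any overlap of the 6 night libraries with the 6 late light libraries were 10 of 10 genes in RNA-seq, where 3.10% of all genes tested showed this, and 10 of 10 in RPF-seq, where the background was 3.15%. The 6 morning libraries from ZT00 to ZT04 lay wholly above the late light libraries for 5 of the 10 genes in RNA-seq (2.64% of all genes) and for 5 in RPF-seq (1.89%). In RNA-seq these 5 were Creld2, Hyou1, Pdia6, Hsp90b1 and Calr, and in RPF-seq Sdf2l1, Pdia4, Pdia6, Hsp90b1 and Calr. RNA from bulk tissue cannot tell more RNA per cell from more cells of a type.

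To describe these courses, a 24-h and a 12-h cosine were fitted together to log2(RPKM + 0.1) over the 24 libraries of an assay with limma. A gene was called for a component at an FDR (the Benjamini-Hochberg adjusted p-value) under 0.05 and a fold from trough to peak of that component of at least 1.5. By this rule, and as a description only, the 24-h component was called in 10 of the 10 genes in RNA-seq, where 10.3% of all genes tested were called, and in 9 in RPF-seq, where 7.71% were. All peaked between ZT12 and ZT24, with a background for such peaks of 3.75% (RNA-seq) and 3.24% (RPF-seq). The RNA-seq folds ran from 1.55 in Dnajb11 to 2.57 in Sdf2l1, with Hspa5 at 2.39, Manf at 2.28 and Creld2 at 2.25. In RPF-seq they ran from 1.45 in Dnajb11, the gene not called, to 3.27 in Sdf2l1. The log2 size of the component was 1.36 ± 0.14 (SE) for Sdf2l1 and 1.26 ± 0.10 for Hspa5 in RNA-seq, and 0.64 ± 0.09 for Dnajb11. The median fold of the 10 genes was 1.86 in RNA-seq and 1.80 in RPF-seq, against 1.205 and 1.18 over all genes tested.

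Only some of the fitted curves had a second maximum, and there it came from the 12-h component. In RNA-seq those of Pdia4, Dnajb11, Hsp90b1 and Calr had 1 maximum. A 12-h component describes departures from a 24-h cosine and does not by itself show a second daily peak. Again as a description of values used in the choice, the 12-h component had an FDR under 0.05 in 6 of the 10 genes in RNA-seq (0.598% of all genes tested). In RPF-seq it did so in 6 (0.700%). With the 1.5-fold cutoff added it was called in 5 in RNA-seq (0.152%) and in 3 in RPF-seq (0.143%). Creld2 had the largest fold in RNA-seq at 2.04, or 1.03 ± 0.13 (SE) on the log2 scale, close to its 24-h component of 1.17 ± 0.13. Manf followed at 1.86, Sdf2l1 at 1.82, Hspa5 at 1.66 and Hyou1 at 1.53, and Pdia6 passed the FDR with a fold of 1.26. Hsp90b1 and Calr had 12-h folds of 1.26 and 1.18, and Pdia4 and Dnajb11 of 1.19 and 1.15, none past the FDR in RNA-seq. In RPF-seq the FDR was passed by Sdf2l1 with a fold of 1.96, Manf 1.87, Hspa5 1.72, Hyou1 1.497 (just under the cutoff), Pdia4 1.31 and Pdia6 1.29, while Creld2 with 1.77 missed it. Its RPF value at ZT04 was 52.3 RPKM in replicate 1 and 20.2 in replicate 2, the latter from the library with many zeros, and without that pool Creld2 passed as well and 5 of the 10 genes were called.

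**Figure D2:**
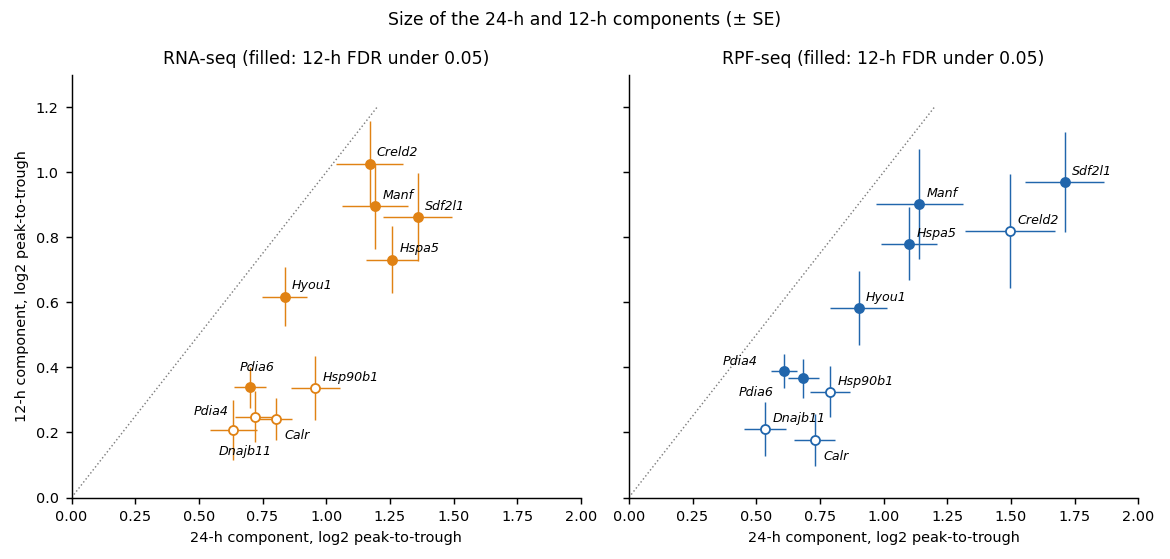
Size of the 24-h component (horizontal axis) and of the 12-h component (vertical axis) as log2 peak-to-trough for each chaperone gene in RNA-seq and RPF-seq, with bars for ± SE, filled points for a 12-h FDR under 0.05 and a dotted line where both components are of equal size. Creld2, Manf, Sdf2l1, Hspa5 and Hyou1 stand at 12-h sizes of 0.58 and more in both assays, and the other 5 genes at 0.39 and less.

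The share of the 12-h component differed between the genes. Its log2 size was 87.7% of the 24-h size for Creld2, 75.1% for Manf, 73.8% for Hyou1, 63.4% for Sdf2l1 and 58.1% for Hspa5 in RNA-seq, but 30.1% for Calr and 32.8% for Dnajb11. The fitted sum of both had 2 maxima in 6 genes in RNA-seq, the second between ZT2.70 and ZT3.90, and in 7 genes in RPF-seq, the second between ZT2.15 and ZT3.60. At this second maximum the fitted level was 1.52 times (Pdia6) to 2.14 times (Sdf2l1) that of the trough in RNA-seq. The main maximum lay between ZT16.6 (Manf) and ZT19.7 (Calr) and the trough between ZT9.15 and ZT11.2. From trough to main maximum the fitted curve changed 3.795-fold for Sdf2l1, 3.79-fold for Creld2, 3.52-fold for Manf and 3.30-fold for Hspa5, and 1.65-fold for Dnajb11.

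The morning maximum rested more on replicate 1 than on replicate 2. At ZT02 all 10 genes were higher in replicate 1 in both assays, by a median of 1.23-fold in RNA-seq and 1.22-fold in RPF-seq. At ZT04 the median was 1.37-fold in RNA-seq, where 9 of 10 genes were higher, and 1.48-fold in RPF-seq, where all 10 were. Creld2 RNA was at 71.8 and 45.4 RPKM at ZT02 and at 69.4 and 41.0 at ZT04, and Manf RNA at 149.8 and 101 and then at 115 and 75.7. Sdf2l1 was at 29.4 and 22.9 RPKM at ZT02 and at 27.6 and 15.3 at ZT04. The median log2 difference of the 10 RNA values at ZT02 was 0.30, where the median absolute difference of all genes tested was 0.10. At ZT08 and ZT22 too all 10 genes were higher in replicate 1 in both assays, by medians of 1.10-fold and 1.11-fold in RNA-seq. Those 2 medians lay above the replicate differences of 80.1% and 82.0% of all genes tested. At ZT14 and ZT16 the order was the other way, and all 10 genes were higher in replicate 2 in RNA-seq, by medians that put replicate 1 at 0.871 and 0.837 of replicate 2.

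**Figure D3:**
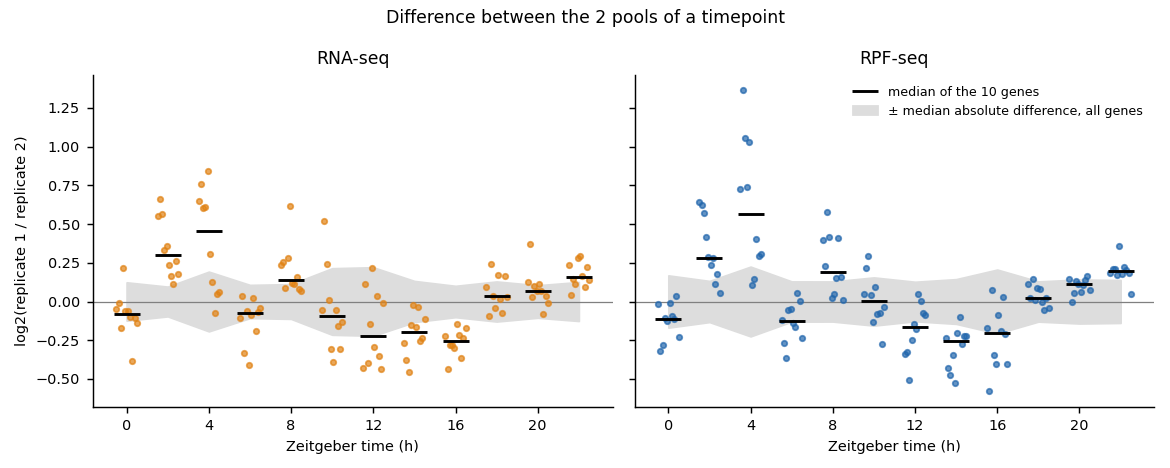
Log2 ratio of replicate 1 to replicate 2 (vertical axis) at each Zeitgeber time in hours for the 10 chaperone genes, 1 point per gene with the points of a timepoint spread sideways, their median as a black bar, and the median absolute difference of all genes tested on either side of 0 in grey. The medians stand at 0.30 and 0.46 at ZT02 and ZT04 in RNA-seq and at 0.28 and 0.57 in RPF-seq, and below 0 from ZT12 to ZT16 in both.

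Read within each replicate, the ZT02 value lay above both its neighbours in 9 of 10 genes for replicate 1 and in 5 for replicate 2 in RNA-seq, and in 8 and 2 in RPF-seq. For Hspa5 the replicate 2 RNA series went from 403 at ZT22 to 412 at ZT00 and 375 at ZT02, without a maximum at ZT02. Set against ZT22, the ZT02 value in RNA-seq was higher in 9 of 10 genes in replicate 1 (median ratio 1.06) and in 5 in replicate 2 (median ratio 1.00). These ZT02 counts compare the replicates for the 10 genes only, without a background from all genes tested. Fitted to 1 replicate at a time, the 12-h fold of Hspa5 was 1.77 and 1.56, that of Creld2 1.94 and 2.14, and that of Manf 1.90 and 1.83 in RNA-seq, for replicates 1 and 2. The 12-h peak stayed close as well, at ZT4.63 and ZT4.33 for Hspa5. With 12 libraries no gene was called for the 12-h component in RNA-seq or RPF-seq in either replicate alone. Without the ZT02 and ZT04 pools of replicate 1, an omission chosen after the values were seen, 5 genes were still called in RNA-seq and 2 in RPF-seq. For Hspa5, Creld2 and Manf the 12-h component in RNA-seq was thus of similar size in both replicates, although the ZT02 maximum was not. In RPF-seq its fold was larger in replicate 1 for these 3 genes. It was 1.815 and 1.63 for Hspa5, 1.885 and 1.657 for Creld2, and 2.02 and 1.77 for Manf, in replicates 1 and 2.

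In time, the 10 genes fell along a gradient. The 24-h component peaked in RNA-seq at ZT18.6 ± 0.42 h (SE) for Manf, ZT19.3 for Hspa5 and Creld2, ZT19.7 for Pdia4, ZT20.5 for Sdf2l1 and ZT20.9 for Hyou1 and Dnajb11. Hsp90b1 came at ZT21.1, Calr at ZT21.9 and Pdia6 at ZT21.95. The SEs ran from 0.307 to 0.551 h, and no neighbours in this order lay 2 SEs of their difference apart. The widest gap was 0.84 h, between Hsp90b1 and Calr, whereas Manf, Hspa5 and Creld2 lay apart from Calr and Pdia6 by several SEs. The SE of a difference took the genes as independent, although they share pools. Nor do the SEs show a shift between the replicates. Fitted to 1 replicate at a time, all 10 genes peaked later in replicate 1 than in replicate 2 in both assays. In RNA-seq the peaks were ZT22.0 and ZT19.7 for Hyou1, ZT20.3 and ZT18.4 for Hspa5, and ZT22.2 and ZT21.6 for Calr. The highest timepoint mean in RNA-seq was at ZT16 for Manf, at ZT18 for Hspa5, Creld2, Hyou1, Sdf2l1 and Dnajb11, and at ZT20 for Pdia4, Pdia6, Hsp90b1 and Calr. The 12-h component peaked between ZT3.98 (Manf) and ZT5.75 (Pdia6), and again 12 h later.

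**Figure D4:**
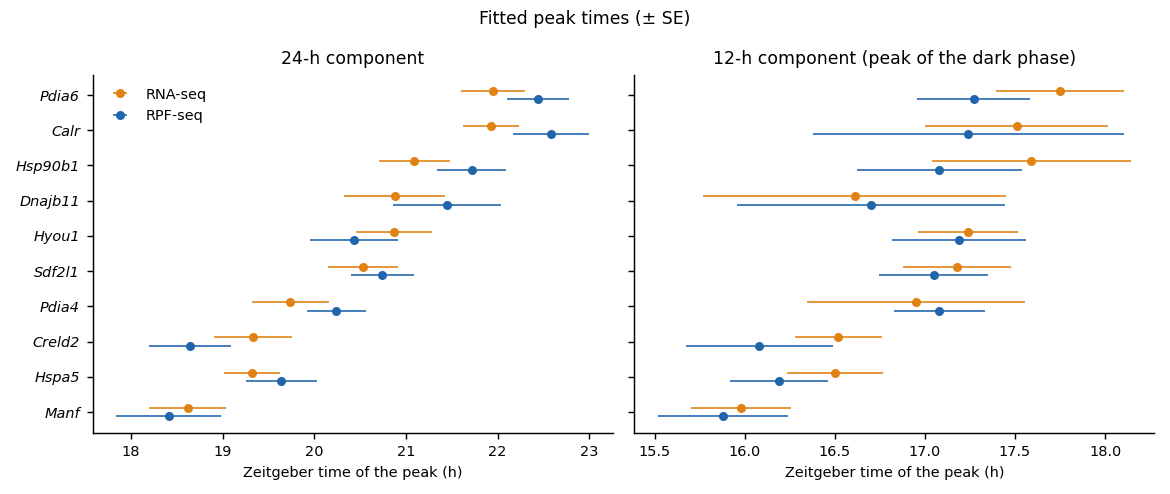
Fitted peak times in Zeitgeber hours (± SE) of the 24-h component and of the dark phase peak of the 12-h component for each chaperone gene, RNA-seq in orange and RPF-seq in blue, ordered by the RNA-seq peak of the 24-h component. Manf, Hspa5 and Creld2 are earliest and Calr and Pdia6 latest, and the bars of both assays overlap in every gene for the 24-h component.

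Footprints and transcripts peaked at nearly the same time. The RPF peak of the 24-h component minus the RNA peak had a median of 0.400 h over the 10 genes and ran from -0.685 h for Creld2 to 0.653 h for Calr, with SEs of 0.481 to 0.806 h. RPF was later in 7 genes and earlier in Creld2, Hyou1 and Manf, and in none was the difference beyond 2 SEs. These SEs took RNA-seq and RPF-seq as independent, although both came from the same pools, so the pairing was not used in them. With each replicate alone the 7 genes kept this sign except Sdf2l1, at 0.38 h in replicate 1 and -0.06 h in replicate 2. For the 12-h component the median was -0.207 h, with RPF earlier in 8 genes. It was -0.0083 h with replicate 1 alone, where RPF was earlier in 5 genes, and -0.341 h with replicate 2 alone. The 24-h component was larger in RPF-seq than in RNA-seq for Sdf2l1 (1.71 against 1.36 on the log2 scale), Creld2 (1.496 against 1.17) and Hyou1 (0.90 against 0.84), and smaller for the other 7.

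TE, the ratio of RPF to RNA RPKM in a pool, varied little over the day. Calr had the highest mean TE at 2.15 ± 0.165 (SD, n = 24), then Hspa5 at 1.84 ± 0.140 and Pdia4 at 1.73 ± 0.146, and Creld2 the lowest at 0.861 ± 0.156. Only Creld2 lay below the 0.972 that was the median of all genes tested. For the 24-h component of TE, 0 of the 10 genes passed an FDR under 0.05 in limma, where 18.3% of all genes did. An unadjusted p under 0.05 in the same test was found in 4 (Hspa5, Creld2, Sdf2l1 and Hsp90b1) and in 4135 of the 11863 genes tested. For the 12-h component none passed, where 0.0169% of all genes did. None of the 10 had an unadjusted p under 0.05 for it, where 9.69% of all genes did. By AIC, which sets no error rate, 8 of the 10 genes had a 24-h term in TE, as did 6648 of the 11863 genes tested. A 12-h term was chosen in 4 of the 10 and in 3385 of the 11863. The median 24-h fold of TE over the 10 genes was 1.11, below the 1.19 of all genes tested.

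The largest differences in TE were modest. Hspa5 had its highest TE at ZT00, 2.08 and 2.04 in the replicates, and its lowest at ZT20, 1.62 and 1.597. Hsp90b1 was likewise lowest at ZT20, at 1.37 and 1.26, and reached 1.895 and 1.601 at ZT04. For Creld2 the TE was 0.754 and 0.493 at ZT04 and 1.06 and 1.17 at ZT16, and for Sdf2l1 it was 0.755 and 1.14 at ZT08 and 1.46 and 1.41 at ZT20. Hspa5 and Hsp90b1 thus had their lowest TE within the hours when their RNA was highest, and Sdf2l1 its highest. By timepoint means, TE was also lowest at ZT20 for Pdia4 and Pdia6 and at ZT18 for Calr. It was lowest at ZT22 for Manf and Dnajb11, and highest at ZT16 for Creld2 and Hyou1. RNA is the divisor of TE, so an error in RNA alone moves TE the other way. None of these TE courses passed the FDR.

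**Figure D5:**
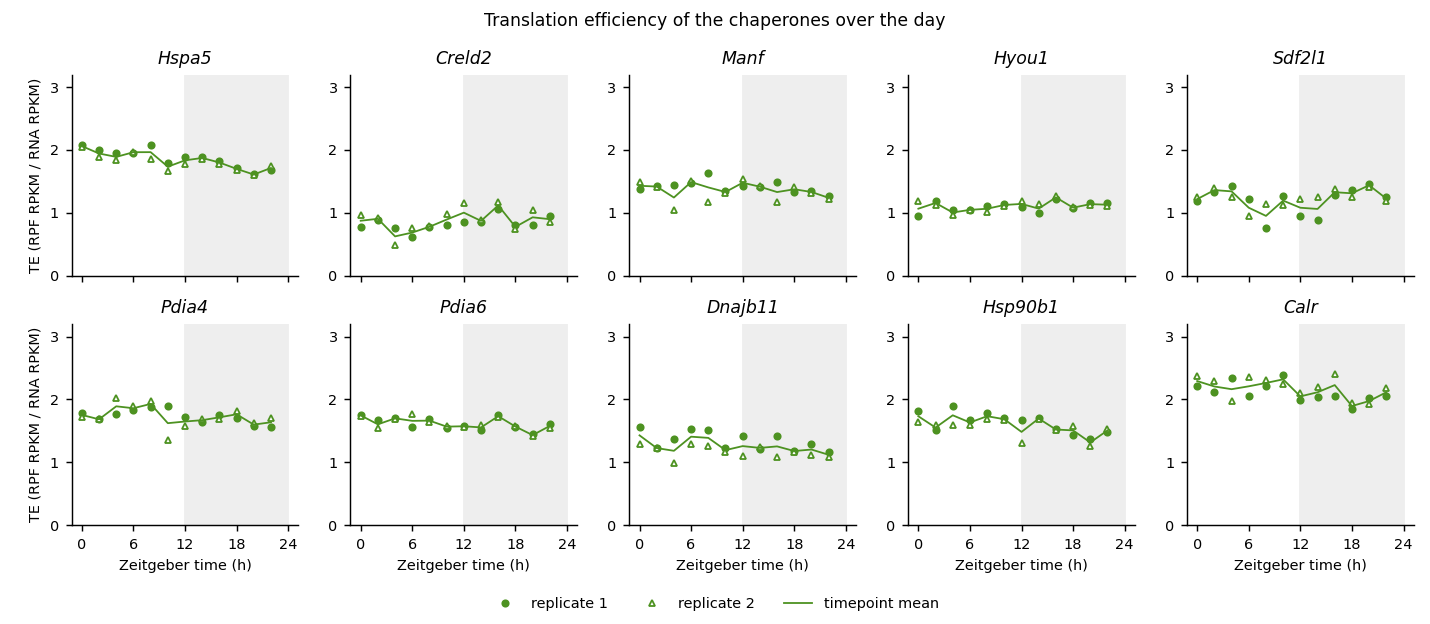
TE (RPF RPKM divided by RNA RPKM of the same pool) against Zeitgeber time in hours for each chaperone gene, replicate 1 as filled circles, replicate 2 as open triangles and the timepoint mean as a line, with the dark phase shaded. Calr and Hspa5 stay near 2 and Creld2 near or below 1 at all timepoints, and no gene has a daily course as wide as that of its RNA.

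The sensors and transcription factors of the UPR did not share the course of the chaperones as a group. Of 19 listed, 17 were tested, and in RNA-seq 9 passed an FDR under 0.05 for the 24-h component (limma, Benjamini-Hochberg; background 50.7%), 3 with a peak in the dark and 6 in the light. In RPF-seq 4 passed (background 33.0%). The median 24-h fold was 1.16 in both, below the medians of all genes given above. Atf4, the factor made when eIF2α is phosphorylated, rose and fell with a fold of 1.67 in RNA-seq (adjusted p = 2.67e-07 with limma, peak ZT18.1) and 1.86 in RPF-seq (adjusted p = 7.06e-05). It was the only gene of the list to pass for the 12-h component, with a fold of 1.56 in RPF-seq (limma adjusted p = 0.0424). Creb3l1, a membrane-bound factor of the Atf6 kind, had a 24-h fold of 2.08 in RNA-seq with a light-phase peak at ZT3.34 (limma adjusted p = 0.000770).

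The 3 sensors themselves moved little. In RNA-seq Eif2ak3 changed 1.16-fold with a peak at ZT18.4 (limma adjusted p = 0.0129) and Atf6 1.17-fold with a peak at ZT16.0 (0.00247 by the same test), while Ern1 with 1.05-fold did not pass (0.664). Xbp1, whose mRNA is spliced by Ern1, had a mean of 124 RPKM ± 20.6 (SD, n = 24) and a fold of 1.19 that did not pass in RNA-seq (limma adjusted p = 0.185), and in RPF-seq one of 1.31 with a peak at ZT15.0 that did (0.0470). Gene-level RPKM does not separate its spliced form. Ddit3 (CHOP) had folds of 1.43 and 1.63 in RNA-seq and RPF-seq and did not pass in either (limma adjusted p = 0.0850 and 0.114). Atf6b, Mbtps1, Nfya, Nfyc and Ppp1r15a passed in RNA-seq with light-phase peaks and folds of 1.14 to 1.33, among them Mbtps1, the protease that activates Atf6, and Nfya and Nfyc, subunits of NF-Y. Ppp1r15b passed in RPF-seq at 1.31-fold. Creb3, Creb3l2, Mbtps2 and Nfyb did not pass for the 24-h component in either assay.

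Other ER machinery had mostly dark-phase peaks but smaller folds. In RNA-seq the 24-h component passed an FDR under 0.05 in 12 of 17 genes of ER-associated degradation, all 12 with dark peaks, in 18 of 22 of the translocon, signal peptidase and oligosaccharyltransferase, all 18 dark, in 11 of 14 of the COPII coat and KDEL receptors, all 11 dark, and in 12 of 16 further disulphide isomerases and oxidases, 11 dark. The background for a dark peak was 23.9%. In RPF-seq the dark peaks numbered 8, 10, 7 and 11 in the same lists, with a background of 14.5%. In the shorter lists it passed in 7 of 9 lectin cycle and glycan trimming genes (5 dark), 3 of 9 BiP cofactors (all dark) and 4 of 7 prolyl isomerases (1 dark). The median 24-h folds of these lists lay between 1.11 and 1.28, where the 10 chaperones had 1.86. That contrast is a description only and was not tested, because the 10 had been chosen on their 24-h term.

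Among the degradation genes Derl3, which takes part in moving proteins out of the ER, had a fold of 3.27 with a peak at ZT20.5 (limma adjusted p = 0.000408) at a mean of only 1.11 RPKM. Herpud1 changed 1.90-fold but peaked at ZT13.9 (2.50e-08 by limma), before any of the 10 chaperones. Kdelr2, a receptor that returns chaperones bearing a KDEL signal to the ER, changed 1.54-fold with a peak at ZT17.3 (limma adjusted p = 8.59e-07), and Kdelr3 1.70-fold in RPF-seq with a peak at ZT7.85. Ero1lb, an oxidase that recharges disulphide isomerases, changed 1.54-fold and Pdia3, the isomerase that works with calreticulin, 1.502-fold with a peak at ZT23.9. Dnajc3, a BiP co-chaperone, changed 1.45-fold with a peak at ZT21.0, Uggt1, which tags misfolded glycoproteins, 1.43-fold at ZT20.9 and Mcfd2, a cargo receptor subunit, 1.298-fold at ZT17.4. In the prolyl isomerases Fkbp10 changed 1.32-fold and Fkbp7 1.26-fold. Ostc and Dad1, subunits of the oligosaccharyltransferase, changed 1.74-fold and 1.67-fold in RNA-seq, and Dad1 was at 1.06-fold in RPF-seq without passing (limma adjusted p = 0.626).

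A 12-h component was rare in these lists. It passed an FDR under 0.05 in RNA-seq in Sec24d of the COPII coat (fold 1.33, limma adjusted p = 0.0184) and Rpn1 of the oligosaccharyltransferase (1.21, limma adjusted p = 0.0119). In RPF-seq it passed in Syvn1, the ubiquitin ligase of ER-associated degradation (1.33, limma adjusted p = 0.00912), Dnajb9, a BiP J protein (1.31, limma adjusted p = 0.0350), and Ssr2 of the translocon (1.26, limma adjusted p = 0.0293). None of these 5 reached a fold of 1.5. Of 10 other tested genes with the ERSE letters in their promoters, 0 passed for the 12-h component in RNA-seq (background 0.598%) and 2 in RPF-seq (background 0.700%) with limma. For the 24-h component 8 of the 10 passed in each assay, with backgrounds of 50.7% and 33.0%.

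Among the other lists, in RNA-seq though not in RPF-seq, most genes with a 12-h component were heat shock chaperones outside the ER. Of 14 listed, 12 of them cytosolic, 13 passed for the 24-h component in RNA-seq, all with dark peaks, and 8 for the 12-h component, 6 of them with a fold of 1.5 or more. In RPF-seq 12 passed for the 24-h and 4 for the 12-h component. The other 2 are the mitochondrial Hspd1, which passed for the 24-h component only in RPF-seq, and Hspe1, which did so only in RNA-seq, and neither passed for the 12-h component. Together the 2 lists held 11 of the 18 genes called for the 12-h component in RNA-seq, 5 from the ER and 6 from the cytosol. In RPF-seq they held 6 of 17, 3 from each, and 11 came from neither list. These shares are a description only, because the ER genes had been chosen on this component and the lists with earlier results known. Hspa8, the constitutive Hsp70, had a 12-h fold of 1.71 (limma adjusted p = 0.00114), Hsph1, its exchange factor, 1.80 (limma adjusted p = 0.00580), and Hspa1b and Hspa1a, the inducible Hsp70 genes, 2.89 and 2.54 (0.0443 and 0.0457 by limma). The last 2 are nearly identical copies, so that their reads may have been split between them in an uncertain way.

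The cytosolic chaperones had earlier fitted peaks. Among genes past the FDR, the 12-h component peaked in RNA-seq between ZT1.93 and ZT4.02 (median ZT2.94) in the 8 cytosolic genes and between ZT3.98 and ZT5.75 (median ZT4.85) in the 6 ER genes, with SEs of 0.242 to 0.390 h. In RPF-seq the ranges were ZT2.22 to ZT3.89 in 4 genes and ZT3.88 to ZT5.27 in 6. For the 24-h component the RNA medians were ZT18.3 in 13 genes of that list, Hspe1 included, and ZT20.7 in 10 ER genes, with overlapping ranges of ZT15.4 to ZT21.8 and ZT18.6 to ZT21.9. The difference between the lists was not tested, because the ER genes had been chosen for these values.

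Over the 24 RNA libraries, the genes whose log2 values followed the mean profile of the 10 chaperones most closely were P4ha1, a prolyl hydroxylase of collagen in the ER (Pearson's r = 0.970), Hsp90aa1 (0.954), Hspa4l (0.942), the Hsp90 activator Ahsa1 (0.932) and Slc35b1 (0.931). In the 24 RPF libraries they were Fkbp4 (r = 0.954), Ahsa1 (0.940), Tardbp (0.935), Hsp90ab1 (0.925) and Ddx17 (0.917). For comparison, each chaperone against the mean of the other 9 gave r from 0.826 (Manf) to 0.949 (Hyou1) in RNA-seq and from 0.797 (Manf) to 0.979 (Hyou1) in RPF-seq. These correlations describe libraries that share their pools and scaling, and the daily course itself enters all of them. Of the 5 genes from RNA-seq, 24-h folds ran from 1.46 (Slc35b1) to 2.07 (Hsp90aa1) and 12-h folds from 1.15 to 1.37.

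Levels of markers of other cell types are given beside the chaperones, and their part in the chaperone values was not tested. Plasma cells, which are rich in ER chaperones, were represented by Jchain alone, since the other 5 of 6 plasma and B cell markers had no value in both assays; it ran from 2.07 to 6.17 RPKM from ZT16 to ZT20 and from 1.51 to 4.37 from ZT08 to ZT12 in RNA-seq, with overlapping ranges. At ZT02 and ZT04 Jchain was higher in replicate 1 (2.70 and 4.05 RPKM) than in replicate 2 (1.51 and 1.74), as the chaperones were. For 4 of 6 leukocyte and blood markers (Cd3e and Hbb-bs had no value) the summed RNA level was 251 to 425 RPKM at night and 256 to 370 in the late light phase. The 4 adipocyte markers summed to 105 to 140 and 103 to 133, a sum in which Fabp4 is by far the largest part. Adipoq RNA was at its highest, 3.98 RPKM, in the replicate 1 pool of ZT04, against 1.68 in replicate 2. Plin1 (2.07 and 0.706) and Cidec (2.98 and 0.948) went the same way there. Fabp4 went the other way, with 132 RPKM in replicate 1 and 155.5 in replicate 2. The 4 detected liver and pancreas markers summed to 59.4 to 76.7 RPKM at night and 58.0 to 79.0 in the late light phase. The 7 kidney markers summed to 48780 to 70910 RPKM at night and 43720 to 57610 in the late light phase, a sum in which Kap is by far the largest part.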

How the data were processed

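Kidney RNA-seq and RPF-seq libraries of 24 pools were analysed. The authors deposited 1 RPKM value per gene and library: reads were trimmed (cutadapt), mapped (Bowtie2 2.2.1, TopHat2 2.0.11, per the submitters' processing notes; build GRCm38.p2), and assigned to coding sequences. The authors scaled these libraries by upper quantiles with edgeR before they were deposited. That scaling hides changes in total RNA per cell. Tests covered the 11863 genes whose RPKM medians reached 0.5 in RNA-seq and RPF-seq, on log2(RPKM + 0.1), with limma 3.58.1 in R 4.3.3 (eBayes with a variance trend): moderated F tests of the 24-h and 12-h cosine and sine pairs, adjusted by Benjamini-Hochberg over all genes tested. Folds are on that log2 scale. TE was fitted as the log2 ratio within a pool, called by FDR without a fold cutoff. The fits of RNA-seq and RPF-seq, but not that of TE, were checked on simulated data with residuals drawn independently. SEs of peak times come from the fitted coefficients. Reads per value and depth were recovered from coding lengths (GENCODE vM21, GRCm38), for which 98.9% to 99.1% of values of the genes used were whole within 0.05, for description only, since RPKM is not a count; intervals for counting error were not drawn. Tables were made in Python 3.11.15. Pools with the same replicate number did not deviate together at all timepoints, so the number was not used as a pairing. The correlation of replicate differences between timepoints was -0.181 to 0.480 in RNA-seq (mean 0.0291, over 0.1 in 13 of 66 pairs). In RPF-seq it was -0.204 to 0.185 (mean 0.0197, over 0.1 in 10). A shift in timing between the replicate numbers would change sign over the day, so these means cannot show one. RNA and RPF of 1 pool did deviate together (0.106 to 0.447 at all 12 timepoints). The genes, lists and tests were chosen with earlier results of these data known. Named are the 10 chaperones, all tested UPR genes, from each other list up to 3 genes with the largest 12-h and 2 with the largest 24-h fold past the FDR, and the 5 genes per assay with the highest correlation to the chaperone mean, with 4 clock genes and markers beside results; Hspa8 and the genes of the closing observations were chosen after their values were seen. Alternatives were the pseudocount, RPKM minimum, scaling, model, FDR, fold cutoff, a replicate block and omission of each replicate and pool. 1 further kidney marker is not reported here.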

Additional observations from a re-analysis of the deposited data

Results flagged for a closer look

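In 16 of the genes named from the ER, UPR, heat shock and clock lists or for their likeness to the chaperones, none of them one of the 10, the 24-h component differed between RPF-seq and RNA-seq by the test of TE (limma, Benjamini-Hochberg). Among the UPR genes the 24-h fold of TE was 1.45 for Nfya, 1.41 for Atf6b, 1.24 for Nfyc and 1.23 for Atf6. In the ER lists it was 1.62 for Dad1, 1.45 for Fkbp7, 1.38 for Ssr2, 1.37 for Dnajb9, 1.27 for Mcfd2, 1.22 for Ostc, 1.21 for Rpn1 and 1.17 for Uggt1. Dad1, Ssr2, Rpn1 and Mcfd2 had TE peaks between ZT2.72 and ZT3.88, in the early light phase, and RNA peaks in the dark between ZT16.1 and ZT18.6. Of the remaining genes the fold was 1.39 for Ddx17, 1.27 for Tardbp, 1.25 for Hsph1 and 1.22 for Cry1. The adjusted p-values of these 16 from limma ran from 0.000107 (Dad1) to 0.0487 (Nfyc). Of the kidney markers named, Kap, Slc34a1 and Lrp2 passed the same test, with TE folds of 1.32, 1.25 and 1.18.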

How the results depend on the processing

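The 24-h component was called in 10 of the 10 chaperones in RNA-seq under every alternative run and in 8 to 10 in RPF-seq; the 12-h component and TE depended on the settings. Over all genes, a pseudocount of 1 left 785 RNA-seq and 594 RPF-seq genes called for the 24-h component, and no fold cutoff gave 6016 and 3912, with 71 and 83 for the 12-h component and 6 of the chaperones for it in RPF-seq. A model with only the 12-h pair called 0 genes and 0 chaperones for it in either assay and 0 genes in TE, since the 24-h change then stays in the residual. AIC selection gave 143 RNA-seq and 227 RPF-seq genes for the 12-h component, and in TE 6648 genes and 8 chaperones for the 24-h and 3385 genes and 4 chaperones for the 12-h component. An FDR of 0.01 left 10 RNA-seq and 6 RPF-seq genes for the 12-h component, and 618 and 0 in TE. In TE a fold cutoff of 1.5 left 473 and 1 genes, and median-of-ratios scaling called 1 chaperone for the 24-h component; the cause was not tested.

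Leaving out a replicate or a single pool gave, for the 12-h component, 0 to 37 RNA-seq genes (0 to 5 chaperones) and 0 to 36 RPF-seq genes (0 to 5 chaperones), 392 to 974 genes for the 24-h component in RPF-seq, and in TE 0 to 2567 genes (0 to 1 chaperones) for the 24-h and 0 to 5 for the 12-h component. The 0 values for RNA-seq and RPF-seq come from 12 libraries of 1 replicate, while single pools left 4 to 5 and 2 to 5 chaperones; the 5 in RPF-seq came without the replicate 2 pool of ZT04, which also gave 29 and 36 genes in RNA-seq and RPF-seq, and the 37 without the replicate 1 pool of ZT12. The 1 chaperone in TE came without 1 of the pools ZT04 replicate 2, ZT10 replicate 1, ZT10 replicate 2 or ZT12 replicate 2. The median RPF minus RNA peak time of the 24-h component was 0.238 to 0.405 h. Added after seeing the data, leaving out both pools of ZT02 called 1 chaperone for TE, and both pools of ZT04 called 40 genes and 5 chaperones for the 12-h component in RPF-seq and 1 chaperone for TE. With a replicate block the counts were 1222 and 17 in RNA-seq, 914 and 18 in RPF-seq and 2312 and 2 in TE for the 24-h and 12-h components, and the counts of chaperones called were as without it. Without the pairing of RPF and RNA in a pool (no replicate block), TE called 1254 genes for the 24-h component and no chaperone. Depth limits Sdf2l1 most among the chaperones.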

Other observations

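Outside the lists, a 12-h component past the FDR was also found in further genes of the ER and of the Hsp90 system, chosen here after their values were seen. In RNA-seq Atp2a2, the pump that fills the ER with calcium, had a fold of 1.36 with a first peak at ZT3.67 (limma adjusted p = 0.00114), and the collagen prolyl hydroxylase subunits P4ha2 and P4ha1 had folds of 1.41 and 1.32 (limma adjusted p = 0.00453 and 0.0319) with peaks at ZT3.98 and ZT4.62. In RPF-seq the Hsp90 co-chaperones Chordc1 and Ahsa1 had folds of 1.59 and 1.35 (limma adjusted p = 0.00204 and 0.0248) with peaks at ZT2.99 and ZT4.18, and the J protein Dnajb4 one of 1.68 with a peak at ZT1.17 (limma adjusted p = 0.00829). Apart from chaperones, the 12-h component called in RNA-seq was largest in Pemt, which makes phosphatidylcholine, with a fold of 2.40 and a peak at ZT7.68 (limma adjusted p = 0.00547).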
